A study of Mus musculus with 32 samples.

Results

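The markers of solitary chemosensory cells, also called tuft cells, were followed in the VNO neuroepithelium of 4 inbred mouse strains. The genes were taken by name and are Gnat3, Trpm5, Pou2f3, Chat, Plcb2, Tas1r3, Avil, Gfi1b and Il25, which makes 9 of the 49671 genes listed, and all 9 were found. Total RNA came from 32 individual mice of 42 days, 4 males and 4 females per strain, which gave 8 mice for a strain and 16 for a sex. The strains are labelled 129S6/SVEV (129), C57/BL6 (B6), SJL/J (SJL) and SWR/J (SWR), where the paper calls the first of them 129Sv/J. None of the groups carried a transgene or received a treatment according to the labels. A library held between 5106398 and 18640871 reads on genes, with a median of 11461344.

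Solitary chemosensory cells are scattered epithelial cells of the airways, the gut and the nose that borrow the signalling chain of taste buds. A receptor of the Tas1r or Tas2r family activates a G protein with the alpha subunit gustducin (Gnat3), the phospholipase Plcb2 then releases calcium from internal stores, and the channel Trpm5 opens. The factor Pou2f3 is needed for these cells to form, and the cells can signal to their neighbours with acetylcholine, which is made by Chat, or with the cytokine Il25, which alarms the type 2 immune response. In the nose such cells are known to sense irritants and bacterial compounds, and they have been described at the entrance of the vomeronasal organ.

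All members except Plcb2 were rare transcripts in this tissue. Summed over 32 libraries, Plcb2 had 5012 reads, Tas1r3 711, Avil 565, Trpm5 366 and Gnat3 307, whereas Pou2f3 had 77, Chat 64, Il25 43 and Gfi1b 13. Only the first 5 passed the filter on low counts and were tested, and the other 4 are described by their reads. Of the 5 that were tested, 3 (Plcb2, Gnat3 and Trpm5) were DE among strains with FC above 2 and FDR under 0.05 in at least 1 of 6 strain pairs, a criterion that 19.8% of the 18382 genes tested met. Without the limit on FC all 5 tested members were called, as were 80.1% of all genes tested, so that this count is close to the background. In the tissue as a whole, the markers Omp and Gnai2 of mature vomeronasal neurons were abundant, at 748 and 182 RPKM. RPKM stands for reads per kilobase of exon and per 1000000 reads on genes. In RNA of whole tissue, fewer cells of a type and less RNA per cell cannot be told apart.

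The members are spread over the genome (GRCm38, genes of GENCODE M21). Plcb2 lies on the minus strand at chr2:118707517-118728438, Gnat3 on the plus strand at chr5:17962549-18019834, Trpm5 on the minus strand at chr7:143069153-143094642 and Avil on the plus strand at chr10:127000709-127020994. Tas1r3 occupies chr4:155859268-155863362 on the minus strand. Exons of Trpm5, Tas1r3 and Avil overlap those of Tssc4, Dvl1 and Tsfm on the opposite strand, and reads were counted by strand. Pou2f3 is found at chr9:43123939-43210369, Gfi1b at chr2:28609450-28621982 and Chat at chr14:32408203-32465989, all on the minus strand, and Il25 at chr14:54932695-54935837 on the plus strand. The introns of Chat hold Slc18a3, the vesicular transporter of acetylcholine, whose exons do not overlap those of Chat and which had 6 reads in all libraries.

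Promoter sequences of RefSeq, which run from 250 bases before to 50 bases after the start of a gene, were available for 7 of the members and not for Pou2f3 and Il25. The promoters of Plcb2 and Gnat3 are shown because Plcb2 gave the strain difference with the smallest FDR among the members and Gnat3 the one with the largest LFC, and that of Avil because it was the member promoter that held the core of the octamer bound by POU factors such as Pou2f3. They are reference sequence on the strand of the gene, with capitals only for that core (ATGCAAA or its reverse complement TTTGCAT).
Plcb2, chr2:118728389-118728688, minus strand: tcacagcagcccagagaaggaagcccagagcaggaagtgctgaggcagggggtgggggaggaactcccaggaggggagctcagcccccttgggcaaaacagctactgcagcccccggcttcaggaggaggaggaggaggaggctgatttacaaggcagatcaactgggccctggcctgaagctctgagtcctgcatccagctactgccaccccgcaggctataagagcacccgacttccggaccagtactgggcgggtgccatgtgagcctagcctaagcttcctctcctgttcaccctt
Gnat3, chr5:17962320-17962619, plus strand: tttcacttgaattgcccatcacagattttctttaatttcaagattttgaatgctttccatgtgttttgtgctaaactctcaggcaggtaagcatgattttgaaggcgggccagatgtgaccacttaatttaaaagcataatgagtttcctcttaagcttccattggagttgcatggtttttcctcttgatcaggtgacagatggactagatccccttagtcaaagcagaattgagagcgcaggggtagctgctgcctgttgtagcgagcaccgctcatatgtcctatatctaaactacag
Avil, chr10:127000459-127000758, plus strand: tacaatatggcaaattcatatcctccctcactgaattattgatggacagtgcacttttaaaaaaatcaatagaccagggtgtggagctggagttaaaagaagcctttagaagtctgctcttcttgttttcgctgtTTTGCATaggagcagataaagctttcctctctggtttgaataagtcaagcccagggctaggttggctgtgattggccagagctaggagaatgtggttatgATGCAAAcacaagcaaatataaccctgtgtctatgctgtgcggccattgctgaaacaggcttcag
The full octamer ATGCAAAT was found on neither strand of the 7 member promoters, and on 1 or both strands of 570 of 32851 promoters of the same length (1.74%). Its first 7 bases, which every octamer also contains, occurred in the Avil promoter once on each strand and in 4.63% of all promoters. A match is a description of the letters and not of binding.

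Plcb2, the phospholipase of taste transduction, was the most abundant member and differed most clearly among strains. In 129 the normalized counts ran from 69.9 over a median of 92.5 to 109, and in SJL from 119 over 140.5 to 172. In SWR they ran from 166 over 185 to 215, and in B6 from 165 over 181 to 239. Every 129 mouse thus lay below every mouse of the other strains, while SWR and B6 shared their range. The means were 92.0 ± 15.2 in 129, 141 ± 15.7 in SJL, 185 ± 15.7 in SWR and 190 ± 24.5 in B6 (SD, n = 8 mice each).

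Compared with 129, Plcb2 was higher in B6 by an LFC of 1.05 (SE 0.089, FDR 7.91e-12), in SWR by 1.0 (FDR 2.34e-11) and in SJL by 0.61 (FDR 1.26e-06). SJL was also below B6 (LFC 0.44 for B6 minus SJL, FDR 8e-05) and below SWR (LFC -0.39 for SJL minus SWR, FDR 0.000463). B6 and SWR, the upper neighbours in this order, did not differ beyond their spread (LFC 0.05, SE 0.084, FDR 0.677). Plcb2 is also used by blood cells, and the summed normalized counts of 11 leukocyte markers were lowest in 129 too, at 437 to 850 against 1195 to 1668 in B6, 1110 to 1480 in SJL and 778 to 1079 in SWR. None of the 11 was at 0 reads in any strain. Between SWR and SJL, these sums were lower in SWR and Plcb2 was higher in SWR. The part of leukocytes in the Plcb2 differences was not tested.

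**Figure D1:**
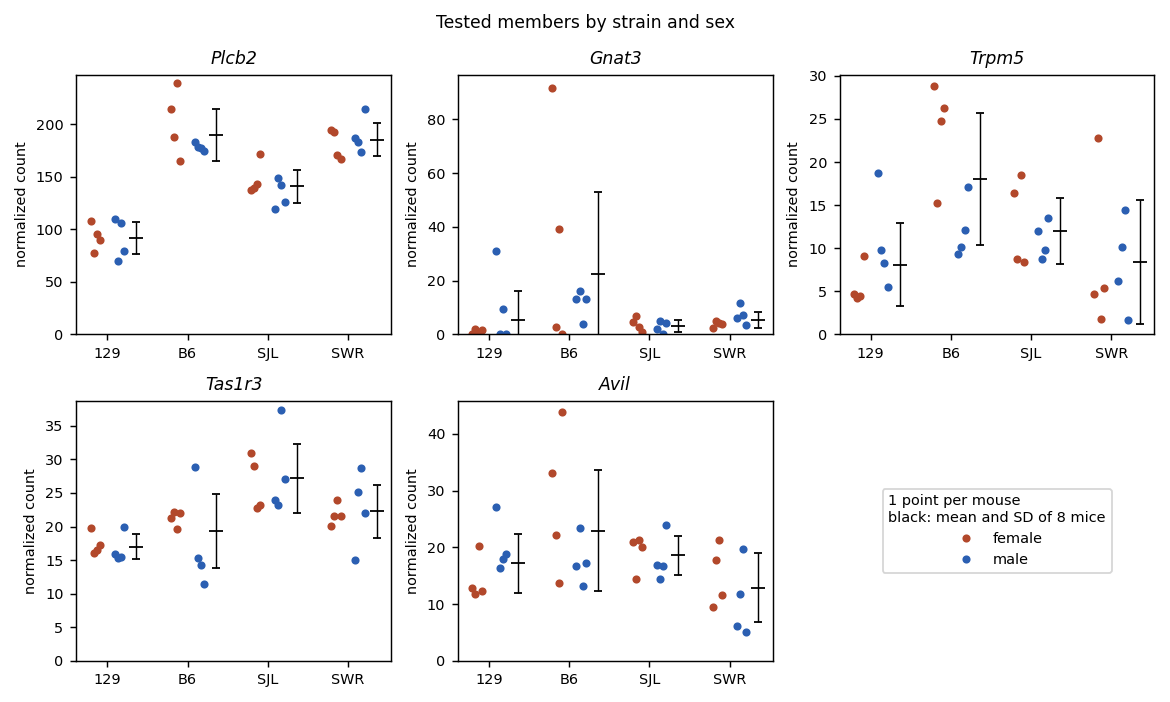
Normalized counts (y axis, from 0) of the 5 tested members in each mouse by strain (x axis), females in red and males in blue, with the mean and SD of 8 mice in black, the lower bars being cut at 0. All 8 mice of 129 lie below all others for Plcb2, while B6 reaches its mean of 22.5 for Gnat3 through few libraries.

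Gnat3, the gustducin alpha subunit, was higher in B6 than in the other strains, but with a very uneven spread. In B6 females it had 91.7, 2.78, 39.2 and 0 normalized counts and in B6 males 13.0, 16.3, 4.06 and 13.4. The 129 males had 30.9, 0, 9.53 and 0 and the 129 females 0, 2.13, 0 and 1.65. SJL mice ranged from 0 to 6.77 (median 3.51) and SWR mice from 2.37 to 11.8 (median 4.75). The B6 range thus covered that of every other strain, and 2 B6 females carried most of the reads (86 and 46 of 182).

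By edgeR, Gnat3 in B6 exceeded SJL by an LFC of 2.76 (SE 0.75, FDR 0.00282), 129 by 2.06 (SE 0.71, FDR 0.0155) and SWR by 2.05 (SE 0.70, FDR 0.0176). The means were 22.5 ± 30.5 in B6, 5.52 ± 10.7 in 129, 5.53 ± 2.95 in SWR and 3.31 ± 2.23 in SJL (SD, n = 8 mice each), and the last 3 did not differ beyond their spread (FDR 0.567 to 0.993). Without B6 female 1 the LFC over 129 was 1.36 (FDR 0.0782) and that over SWR 1.31 (FDR 0.0996), so that only the difference to SJL passed. Without 129 male 1 the LFC over 129 rose to 3.65 (FDR 0.000118), and without both libraries it was 2.91 (FDR 0.000456), with 1.29 over SWR (FDR 0.039) and 2.0 over SJL (FDR 0.00335).

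These libraries also stood apart in markers of other cells. B6 female 1 and 129 male 1 held the highest sums of the 13 markers of glands and secretory epithelium, with 192094 and 182593 normalized counts where the other mice of their strains had 5189 to 35074 and 8022 to 47622. Ciliated cell markers followed, at 5630 in B6 female 1 (2297 to 2642 in the other B6 mice) and 8553 in 129 male 1 (1984 to 3151 in the other 129 mice), and markers of basal epithelium reached 1179 and 1192. B6 female 3, with the second-highest Gnat3, was within the range of the other B6 mice for glands (30722) and just below it for ciliated cells (2297 against 2346 or more), while its 824 for basal epithelium exceeded that of every B6 mouse except female 1. Reg3g, a secreted antibacterial lectin, had 17464 normalized counts in B6 female 1, 9468 in 129 male 1 and 1556 in B6 female 3. Of the 13 gland markers, Dmbt1 alone had 95640 normalized counts in B6 female 1 and 97609 in 129 male 1. Bpifa1, another of them, did not follow. It had 51.2 in B6 female 1, the lowest of the B6 mice (59.2 to 555 in the others). In 129 male 1 it had 135, within the 49.2 to 449 of the other 129 mice. The part of these cells in the Gnat3 values was not tested.

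The beta subunit Gnb3, the usual partner of gustducin, was highest in the same 3 mice. It had 37.3 normalized counts in B6 female 1, 14.5 in B6 female 3 and 10.3 in 129 male 1, and in 129 male 3, the only other 129 mouse with more than 2 Gnat3 reads, both genes stood at 9.53. Other mice did not follow. B6 female 2 had 9.72 for Gnb3 and 2.78 for Gnat3, and B6 males 1, 2 and 4, with Gnat3 at 13.0, 16.3 and 13.4, had Gnb3 at 4.66, 3.05 and 5.72. With 140 reads in all, Gnb3 did not pass the filter and was not tested. Trpm5 was likewise the highest of its strain in B6 female 1 (28.8) and 129 male 1 (18.7).

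**Figure D2:**
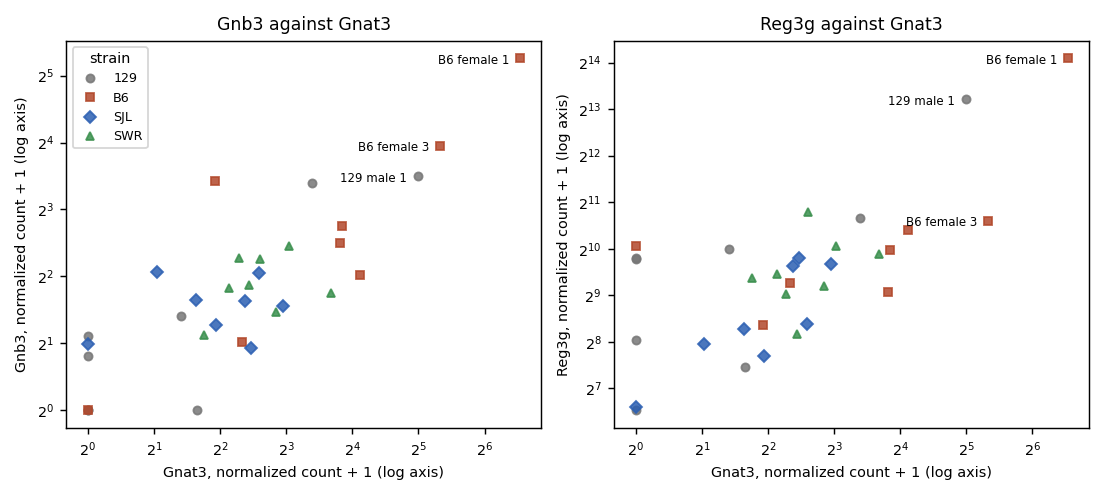
Gnb3 (left) and Reg3g (right) against Gnat3, each as the normalized count + 1 on log axes, with 1 symbol per mouse by strain. B6 female 1 and 129 male 1 lie at the upper right in both plots. B6 female 3 is the second-highest B6 mouse for both Gnb3 (14.5) and Reg3g (1556).

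Trpm5, the cation channel at the end of the chain, was detected in all 32 mice. Its normalized counts ran from 9.32 to 28.8 in B6 (median 16.2), from 8.43 to 18.5 in SJL (median 10.9), from 4.26 to 18.7 in 129 (median 6.94) and from 1.69 to 22.8 in SWR (median 5.80). Ranges overlapped between all strains. B6 was higher than 129 by an LFC of 1.09 (SE 0.37, FDR 0.0148) and than SWR by 1.11 (SE 0.37, FDR 0.0158), with means of 18.0 ± 7.65 in B6, 8.11 ± 4.82 in 129, 8.40 ± 7.21 in SWR and 12.0 ± 3.82 in SJL (SD, n = 8 mice each). Without B6 female 1 these LFC were 0.96 (FDR 0.0332) and 0.98 (FDR 0.036), under the limit of FC 2. SJL stood between them and passed in none of its 3 pairs.

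A further property of the libraries changed the LFC of Trpm5 when it was modelled. Reads on 201 genes of 10 families that belong to hair, testis, placenta, gut and other tissues (named background here) made up 0.627 to 2.05 RPM (reads per 1000000 reads on genes) in 129, 2.73 to 34.4 in B6, 2.57 to 11.1 in SJL and 1.26 to 17.4 in SWR. Spink8 held the largest part of these reads, at 7.17%. With this share as a covariate the LFC of Trpm5 between B6 and 129 fell to 0.40 (SE 0.53, FDR 0.645) and that between B6 and SWR to 0.90 (FDR 0.0665). No 129 library reached the background of a B6 library, so that strain and background cannot be told apart between B6 and 129. Under the same covariate the LFC of B6 minus 129 rose to 3.33 for Gnat3 (FDR 0.00791) and to 1.20 for Plcb2 (FDR 1.06e-08). Among the 3 libraries of highest background, B6 female 4 and SWR female 2 had 26.3 and 22.8 normalized counts of Trpm5 and B6 female 2 had 15.3. Without these 3 libraries 3 members were still called, Trpm5 among them.

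Tas1r3, the shared subunit of the sweet and umami receptors, had its highest mean in SJL. The normalized counts were 22.7 to 37.4 in SJL (median 25.6), 15.1 to 28.8 in SWR (median 21.8), 11.4 to 28.9 in B6 (median 20.5) and 15.3 to 19.9 in 129 (median 16.2). All SJL mice lay above all 129 mice. SJL exceeded 129 by an LFC of 0.67 (SE 0.16, FDR 0.00118) and B6 by 0.49 (LFC -0.49 for B6 minus SJL, FDR 0.0128), both under the limit of FC 2. The other 4 pairs did not pass (FDR 0.0599 to 0.404), and the means were 27.2 ± 5.13 in SJL, 22.3 ± 3.97 in SWR, 19.4 ± 5.55 in B6 and 17.0 ± 1.85 in 129 (SD, n = 8 mice each).

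Avil encodes advillin, an actin-binding protein of tuft cells and of sensory neurons. It ran from 13.2 to 43.9 in B6 (median 19.7), from 14.4 to 24.0 in SJL (median 18.5), from 11.7 to 27.1 in 129 (median 17.1) and from 5.08 to 21.2 in SWR (median 11.7), so that all strains overlapped. The only pair that passed was B6 minus SWR, with an LFC of 0.79 (SE 0.26, FDR 0.0156). This LFC was 0.54 (FDR 0.121) with the background as a covariate and 0.68 (FDR 0.0581) without the 3 libraries of highest background, among them B6 female 4 with the highest Avil value (43.9).

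**Figure D3:**
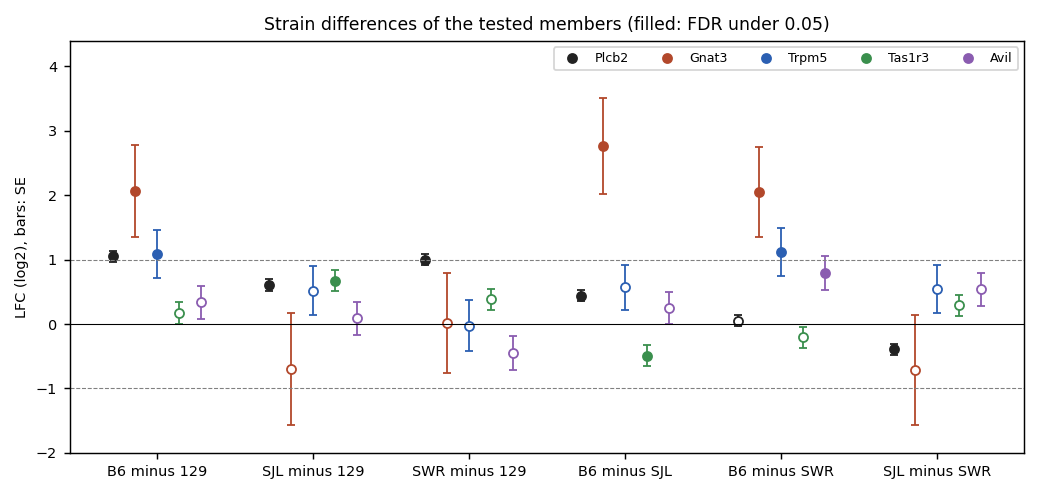
LFC of the 5 tested members (y axis, log2) in the 6 strain pairs (x axis), with bars for the SE, filled symbols for FDR under 0.05 and dashed lines at an FC of 2. Plcb2 has the narrowest bars, with an SE of 0.089 for B6 minus 129, and Gnat3 the widest among the pairs that passed, with an SE of 0.75 for B6 minus SJL.

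The factor Pou2f3 had few reads in every mouse. B6 females had 10, 5, 9 and 1 reads and B6 males 4, 6, 4 and 1, whereas 129 females had 0, 0, 2 and 0 and 129 males 3, 0, 1 and 0. SJL mice had 0 to 7 reads and SWR mice 0 to 4. Pooled over 8 mice the rate was 0.488 RPM in B6, 0.182 in SJL, 0.129 in SWR and 0.0636 in 129. The ratio of B6 to 129 was 7.67, with an exact 95% interval of 3.23 to 22.1 that covers counting error only. The reads on background genes gave a ratio of 9.22 (7.64 to 11.2) between the same strains.

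Chat, the enzyme that makes acetylcholine, had at most 7 reads in a mouse, and 1 read was found in the 8 mice of 129. B6 females had 1, 7, 6 and 7 reads and B6 males 1, 5, 5 and 2, SJL mice had 0 to 5 and SWR mice 0 to 4. The pooled rates were 0.414 RPM in B6, 0.212 in SJL, 0.0794 in SWR and 0.0106 in 129. The ratio of B6 to 129 was 39.1 (exact 95% interval 6.56 to 1590, counting error only). This interval holds the ratio of 9.22 that the reads on background genes gave between the same strains. The highest normalized counts, 15.4 and 9.72, were those of B6 female 4 and B6 female 2, the libraries of highest background (33.3 and 34.4 RPM). B6 female 1, with a background of 2.73, had 1 read of Chat next to 86 of Gnat3 and 10 of Pou2f3.

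Gfi1b, a transcriptional repressor of tuft cells and of blood cell precursors, had 13 reads in all, at most 2 in a mouse. None of them fell in 129, where 0 of 94384696 reads allow a rate of up to 0.0318 RPM, and 6 fell in B6, 4 in SJL and 3 in SWR. Il25 had 19 reads in SJL, 13 in B6, 7 in 129 and 4 in SWR. The most in 1 mouse was 6, in B6 male 2. Differences in these genes were not detectable at this depth with the filter used.

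**Figure D4:**
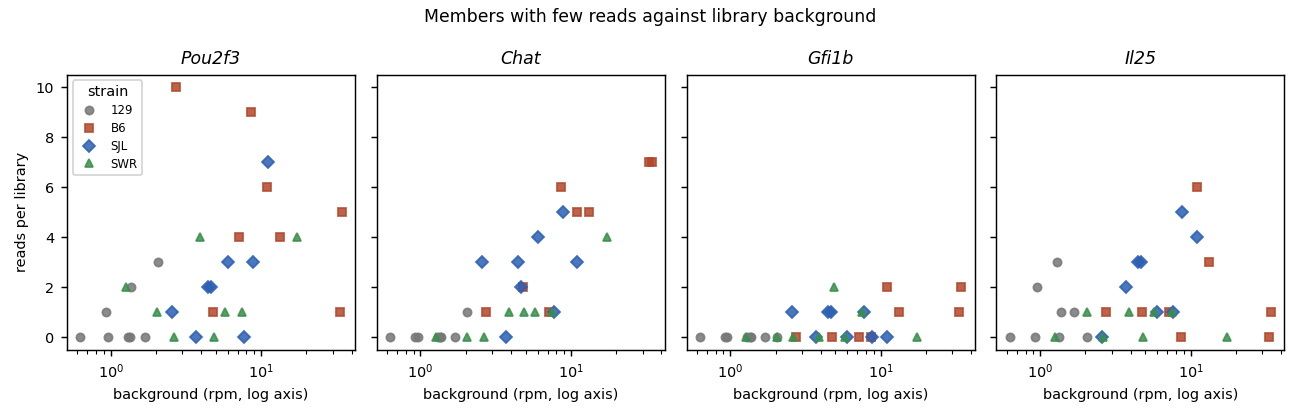
Reads per library (y axis) of the 4 members that were too rare to test, against the RPM on background genes (x axis, log scale), with 1 symbol per mouse by strain. The 129 mice, at 0.627 to 2.05 on the x axis, have at most 3 reads of any of them, and the 7 reads of Chat in B6 female 2 and B6 female 4 lie at the highest background.

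Per length of exon the members fell into steps. Averaged over 8 mice, Plcb2 reached 1.23 RPKM in 129, 1.88 in SJL, 2.46 in SWR and 2.54 in B6. Gnat3 had 1.46 RPKM in B6 and 0.214 to 0.358 in the other strains, Tas1r3 0.426 to 0.679, Avil 0.332 to 0.595 and Trpm5 0.112 to 0.248 RPKM. The 95th percentile of the 201 background genes was 0.132 RPKM in B6, 0.0764 in SJL, 0.0721 in SWR and 0.0094 in 129. Plcb2, Gnat3, Tas1r3 and Avil were above it in all strains, Trpm5 too, and no background gene reached Plcb2. Chat (0.104 RPKM in B6, 0.00219 in 129) and Gfi1b (0.0484 in B6, 0 in 129) were below it in all strains, so that their reads cannot be told apart from background. Pou2f3 was above it in B6 (0.151) and 129 (0.0196) and below it in SJL (0.058) and SWR (0.0441). Il25 was above it in 129 (0.0682), B6 (0.14) and SJL (0.188) and below it in SWR (0.0344). In 129 only 16 of the 201 background genes had a read, which sets a low percentile. There Pou2f3 and Il25 had 6 and 7 reads over 8 mice, while Pou2f3 in SJL, below its percentile, had 18. Being above or below the percentile thus does not rank the strains.

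On the same scale Gnai2, Gnao1 and Xntrpc, relatives of the members with a place in vomeronasal neurons, were more abundant than any member. Not all relatives were. Gnai2 and Gnao1, the alpha subunits of apical and basal vomeronasal neurons, stood at 182 and 13.0 RPKM over all mice, and Gnal, the subunit of the main olfactory epithelium, at 0.242 RPKM. Trpm4, a channel related to Trpm5, stood at 2.48 RPKM and Xntrpc, which holds the reads of the vomeronasal channel Trpc2, at 14.7. Among the phospholipases, Plcb3 (9.78 RPKM) and Plcb4 (8.26) were above Plcb2 (2.03), and Plcb1 (0.349) was below it.

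**Figure D5:**
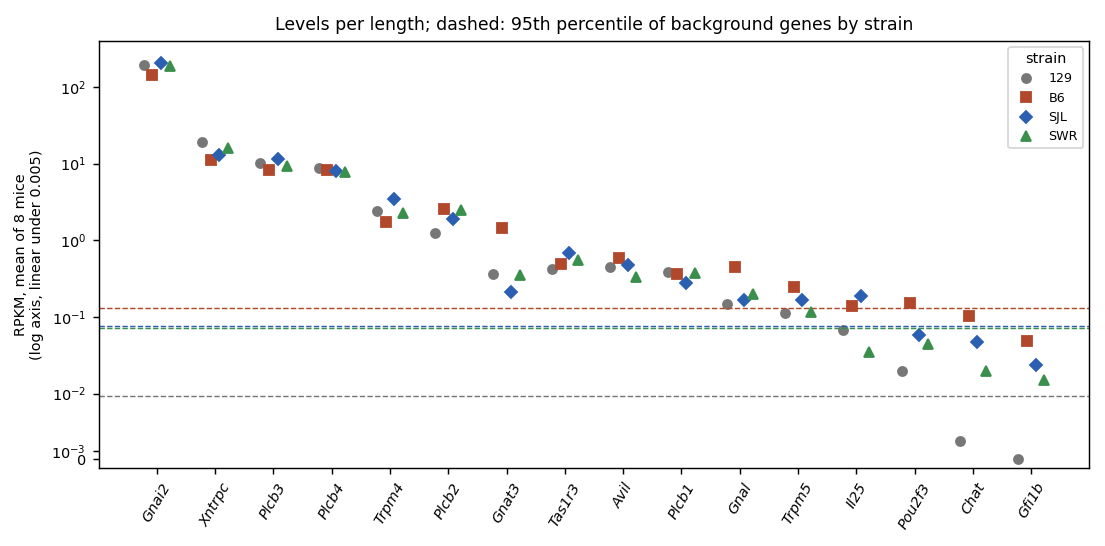
Mean RPKM of 8 mice per strain (y axis, log scale, linear under 0.005) for the 9 members and 7 relatives (x axis), with dashed lines at the 95th percentile of 201 background genes in each strain. Gnai2 stands highest (182 RPKM over all mice), and Chat and Gfi1b lie below the line of their own strain in all 4 strains.

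No tested member passed a test between the sexes. By edgeR 0 of the 5 tested members passed FC above 2 and FDR under 0.01, where 0.0381% of all genes tested did, and 0 passed FDR under 0.05 without a limit on FC, where 0.283% of all genes did. None had an unadjusted p under 0.05 and DESeq2 called 0 as well. The LFC of males minus females ran from -0.18 for Avil to 0.04 for Gnat3, with SE from 0.062 for Plcb2 to 0.51 for Gnat3. For the interaction of sex and strain, edgeR with the filter and DESeq2 called 0 members, and 0.0163% of all genes tested passed in edgeR. Only Gnat3 had an unadjusted interaction p under 0.05 (0.0137, with an FDR of 0.456 by edgeR). Without the filter, edgeR called Gnat3 for the interaction.

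No pair of members passed a test for varying together between mice of the same strain and sex. In 6 pairs of the 4 members with a mean of 10 or more reads (Trpm5, Plcb2, Tas1r3 and Avil), Pearson's r of the log2 CPM (counts per 1000000 reads), centred by strain and sex, ran from -0.24 to 0.40 and Spearman's rho from -0.19 to 0.38. The highest was that of Trpm5 and Avil (r = 0.40, permutation p = 0.115, adjusted p = 0.475 over 6 pairs; rho = 0.38, permutation p = 0.0755, adjusted p = 0.276). Without the 2 libraries farthest from the median of Trpm5 it was 0.27, and within strains of 8 mice it was 0.68 in SJL, 0.48 in SWR, 0.28 in 129 and 0.15 in B6, where the lowest adjusted permutation p was 0.142 in SJL. With Gnat3 added, which had a mean of 9.59 reads, Gnat3 and Plcb2 gave r = 0.43 and rho = 0.31 (permutation p = 0.121 and 0.213, adjusted p = 0.405 and 0.533 over 10 pairs), and r = 0.24 without the 2 farthest libraries. Gnat3 and Trpm5 gave r = 0.28 and rho = 0.31 (permutation p = 0.0408 and 0.106, adjusted p = 0.405 and 0.353). Their unadjusted p for r was the lowest of the 10 pairs.

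The genes most like the mean of these 4 members across the 32 mice, again centred by strain and sex, included Lgr6, Corin, A930011G23Rik, Slc23a1, Tlr13, Kcnab1, Ppp1r36, Ccdc141 and Chn2. Their Pearson's r to the mean ran from 0.67 (Chn2) to 0.73 (Lgr6) and Spearman's rho from 0.61 to 0.74. None of them is among the other genes listed here for taste or tuft cells. The ranking is a description over libraries of few reads for most of these genes, and Slc23a1 had a mean of only 16.4 reads.

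Of 14 other genes of the taste pathway, 6 were tested. In edgeR 0 of these were called among strains with FC above 2, where 19.8% of all genes tested were. Without the limit on FC 5 of the 6 passed FDR under 0.05, close to the 80.1% of all genes tested. Gng13, the gamma subunit that joins gustducin and is also used by olfactory neurons, had 1146 ± 99.6 normalized counts in SJL and 680 ± 102 in 129 (SD, n = 8 mice each). Itpr3, the calcium release channel of taste cells, was at 514 ± 70.6 in SJL and 325 ± 44.8 in 129. The median LFC of the 6 was 0.03 for B6 minus 129, against 1.05 for the 5 tested members. DESeq2, which tested genes of few reads too, called 5 of the taste genes. Without a filter edgeR called 8. Among the untested receptors Tas1r1 had 127 reads and Tas1r2 11, and of the 40 bitter receptors of the Tas2r family none was tested, with a median of 6 reads and a maximum of 145 for Tas2r108.

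Genes of acetylcholine handling gave a strain difference in Slc5a7, the choline transporter, which had 69.4 ± 12.4 normalized counts in B6 and 31.7 ± 5.46 in 129, 33.9 ± 9.93 in SJL and 34.6 ± 6.81 in SWR (SD, n = 8 mice each). B6 exceeded 129 by an LFC of 1.12 (SE 0.16, FDR 2.71e-07), with no overlap of the mice, SJL by 1.03 (FDR 1.08e-06) and SWR by 1.01 (FDR 1.86e-06). Ache, the esterase that breaks acetylcholine down, was lowest in SWR, with LFC of 1.06 for SJL minus SWR (FDR 0.00031) and 1.01 for B6 minus SWR (FDR 0.000511). Of 7 genes listed 4 were tested and 2 were called, where 19.8% of all genes tested were. With the background as a covariate 1 was called, and without SWR male 2 or without SWR male 3 it was also 1.

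Of 30 further genes known from tuft cells of gut and airway, 21 were tested and 9 were called among strains. Of all genes tested 19.8% met this criterion. In B6 minus 129, 7 rose and none fell, where 8.72% of all genes tested rose and 2.4% fell above FC 2 in this pair. Among the 7 were Hpgds (LFC 1.34, FDR 6.11e-09), Alox5ap (1.08, FDR 6.6e-08), Fyb (1.31), Alox5 (1.38), Lrmp (1.35) and Pik3r5 (1.08). Hpgds makes prostaglandin D2, Alox5 and Alox5ap begin leukotriene synthesis, and Fyb and Pik3r5 are signalling proteins that leukocytes use as well. The median LFC of the 21 in this pair was 0.45. Leukocyte markers were lower in 129 in the same comparison, where 5 of the 7 tested rose above FC 2 and the median LFC was 1.34. The part of leukocytes in these differences was not tested.

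The 2 remaining calls had other patterns. Dclk1, a kinase that marks tuft cells of the gut and is also made by neurons, was at 293 ± 35.6 normalized counts in SWR, 370.5 ± 45.7 in SJL, 628 ± 36.1 in B6 and 649 ± 41.4 in 129 (SD, n = 8 mice each), with an LFC of -1.16 for SWR minus 129 (FDR 5.04e-16) and 1.11 for B6 minus SWR (FDR 1.83e-15). No Dclk1 value of SWR reached those of 129 or B6. Bmx, a kinase of epithelium, was lower in SJL than in 129 (LFC -1.88, FDR 0.0271), where 129 male 1 had 574 normalized counts and the other 129 mice 16.4 to 114, and B6 female 1 had 515. B6 female 1 and 129 male 1 are the libraries with the highest sums of gland markers.

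Of 14 listed genes of the type 2 response, 8 were tested and 3 were called among strains, where 19.8% of all genes tested were. The alarmin Il33 rose in B6 over 129 (LFC 1.17, FDR 2.69e-09) and over SJL (LFC 1.38, FDR 8.35e-11), with 435 ± 35.1 normalized counts in B6, 282 ± 67.2 in SWR, 192 ± 46.0 in 129 and 167 ± 27.3 in SJL (SD, n = 8 mice each). Its receptor Il1rl1 was higher in SJL than in 129 (LFC 1.14, FDR 0.00164), and Gata3 was higher in B6 than in SWR (LFC 1.03, FDR 0.0145). Il17rb, the receptor of Il25, had 45.5 to 64.3 normalized counts as strain means and was not called. Il33, Il1rl1, Gata3 and Il17rb were named after their values were seen.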

How the data were processed

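RNA of VNO neuroepithelia from 32 individual mice was used, grouped by the strain and sex of the labels, so that p-values rest on the spread between mice. The number from 1 to 4 in each library description served as replicate number. It was read as the lane, but the labels do not say what it stands for. The authors prepared stranded, ribodepleted libraries, sequenced 125 bp pairs and aligned these to the B6 reference GRCm38 (mm10) and the genes of Ensembl 87 by STAR 2.5.2b. The deposited counts are uniquely placed reads per gene on the stated strand, and the deposited normalized signal is that count divided by a DESeq2 size factor per library. Members, lists and tests were chosen with earlier results of these data known.

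DE was tested with edgeR 4.0.16 (limma 3.58.1, R 4.3.3) by the quasi-likelihood F test after TMM normalization and filterByExpr over 8 groups, with strain and sex as additive terms, and FDR by Benjamini and Hochberg over 18382 genes. LFC above 1 with FDR under 0.05 was required for strains and with FDR under 0.01 for sexes, and FDR under 0.05 for the interaction. SE is the absolute LFC over the square root of F. DESeq2 1.42.0 served as an alternative. Correlations used log2 CPM with a prior count of 0.5, two-sided permutation of libraries within groups (100000 shuffles), with adjustment over pairs. RPKM used exon lengths of GENCODE M21 and TMM library sizes. Intervals are exact, and both they and the floor of 3 reads cover counting error only. The steps were tested on simulated data.

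Named were all 9 members, the genes of the taste, acetylcholine and tuft lists called among strains (at most 10 per list by FDR), the 10 genes most like the mean of the members with a mean of 10 or more reads, and relatives for levels per length. Of the genes this rule names, 2 are not reported here. Other genes were named after their values were seen. Alternatives were DESeq2, its size factors, no filter, the replicate number as a block, background as a covariate, libraries left out and no limit on FC.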

Additional observations from a re-analysis of the deposited data

Results flagged for a closer look

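The 72 sets of 4 mice (9 members in 8 groups of strain and sex) were searched for a mouse far from the other 3 of its group, by the gap to the nearest mouse as a share of the range. 10 were found. For normally distributed values chance gives about 1 in 20 sets, a rate that does not hold for counts of few reads. Of these, 3 concern tested members: Trpm5 in 129 females (9.06 normalized counts, the next at 4.65), Tas1r3 in 129 males (19.9, the next at 15.9) and Avil in 129 females (20.2, the next at 12.8). The other 7 rest on at most 4 reads, where 1 mouse with reads beside 3 without any is always flagged. They are Pou2f3 in 129 females (1.5) and SWR females (5.07), Chat in 129 males (0.936), Gfi1b in SJL males (0.626), Il25 in 129 males (2.19) and in SWR females (0.771), and the SWR male without a read of Il25 (0). The cause was not tested.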

How the results depend on the processing

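Of 507 recomputed LFC of the 13 member differences that passed, 500 kept direction and call, 7 lost the call and 0 reversed. Plcb2 kept an FDR under 0.05 in its 5 pairs under each alternative. Of these, 1 is not given in the report, Tas1r3 in B6 minus SJL without a filter (FDR 0.0527). Members called among strains were 5 by DESeq2, which added Pou2f3 and Chat, 6 without a filter, which added Gfi1b to these, 5 with no limit on FC and 2 to 3 when 1 library was left out. The 2 arose without B6 female 1, and the 2 with the background as a covariate again lacked Trpm5. The interaction called 1 member without a filter, Gnat3. The share of all 44957 genes that passed the interaction in that setting is not given, so this call has no background beside it. Calls in the taste list were 5 by DESeq2, 8 without a filter, 2 without the libraries that stood apart, 3 without the 3 libraries of highest background (an alternative chosen after seeing the data) and 0 to 3 with 1 library left out. In the list of further tuft genes they were 16 by DESeq2, 14 without a filter and 5 with the background as a covariate, and in the acetylcholine list 1 with that covariate and 1 to 3 with 1 library left out. The cause was not tested. No pairing of mice by replicate number was seen. Same-numbered mice correlated at r = -0.289 to 0.477 (median -0.013) and 22 of 112 pairs exceeded 0.1. Mice of other numbers correlated at r = -0.421 to 0.406 (median 0.0112) and 74 of 336 pairs exceeded 0.1. With the replicate block 3 members were called, and 3591 genes in place of 3632. DESeq2 called 7564 genes and edgeR without a filter 12873, both over 44957 genes tested. No correlation passed in any alternative. Depth limits Pou2f3, Chat, Gfi1b and Il25, which had at most 10 reads in a mouse.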
